A study of Mus musculus with 16 samples.

Results

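Potassium channels set how fast and how far the membrane of a heart muscle cell returns to rest after each beat. The genes described here were all protein-coding genes of the mouse whose symbol starts with Kcn, the stem shared by the pore-forming, modifying and accessory subunits of these channels. The gene count table held 94 of them among 55573 genes, and 46 of the 94 reached at least 10 counts in 4 or more of the 16 columns, as did 16971 genes in all. Of the 46, 19 encode voltage-gated (Kv) alpha subunits, 7 encode accessory subunits of Kv channels, 8 encode inward rectifiers (Kcnj), 6 encode 2-pore-domain channels (Kcnk) and 6 encode channels gated by calcium or sodium or their beta subunits (Kcnm, Kcnn and Kcnt).

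RNA was taken from the apex of hearts of wild-type male mice that had received AAV9 under the skin on postnatal day 1. The virus carried either GFP or full-length Cardinal (Gm12295, a long noncoding RNA of the heart), in each case behind the cTNT promoter, which is active in heart muscle cells, so that the control mice carried the same vector and promoter. Each vector was studied after sham surgery and after transverse aortic constriction (TAC), which narrows the aorta and raises the pressure against which the left ventricle pumps, and hearts were taken 4 weeks after surgery. The 4 groups of 4 mice were AAV9-cTNT-GFP with sham surgery, AAV9-cTNT-GFP with TAC, AAV9-cTNT-CARDINAL with sham surgery and AAV9-cTNT-CARDINAL with TAC, called GFP sham, GFP TAC, Cardinal sham and Cardinal TAC. The questions were which potassium channel genes changed with pressure overload and whether Cardinal altered their levels or their response. Age at surgery is not given in the sources used here. Mice are named by the replicate number in their labels, and nothing in the labels says that a number is shared across groups.

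Total gene counts ran from 16441997 to 21904589 a mouse, of which the 94 genes took 0.0669% to 0.0919% and mitochondrial genes 30.3% to 34.0%. The mitochondrial share was lower after TAC, at 30.3% to 31.0% in GFP TAC against 32.8% to 34.0% in GFP sham and at 31.0% to 31.9% in Cardinal TAC against 32.2% to 33.7% in Cardinal sham mice, without overlap. With these genes left out before normalization the median change of the 46 genes was -0.17 in GFP and -0.13 in Cardinal hearts, as with them. Levels are given as CPM, counts scaled to a common library size after TMM normalization, and 3 counts, taken as the floor of detection, correspond to 0.137 to 0.182 CPM. Only the error of counting is in this floor. The level of Cardinal itself was 3.42 to 5.93 CPM in GFP sham, 3.59 to 7.24 CPM in GFP TAC, 26.2 to 40.0 CPM in Cardinal sham and 18.3 to 93.9 CPM in Cardinal TAC mice, so that no GFP mouse reached a Cardinal mouse. Heart muscle genes were high, with a summed level of 8 ventricular and general cardiomyocyte markers (Myh6, Tnnt2, Tnni3, Actn2, Ryr2, Pln, Myl2 and Ttn) of 42458 to 43425 CPM in GFP sham hearts, while the atrial markers Myl7, Sln and Bmp10 were each at 0 in most mice and below 0.5 CPM in all. Myl4, also on the atrial list, was at 0 to 1.76 CPM. All counts come from bulk tissue, in which fewer cells of a type and less RNA per cell cannot be told apart.

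Kv channels open when the cell depolarizes and carry the outward currents that end the action potential. In the mouse ventricle these are chiefly the fast transient outward current, built from Kcnd2 and Kcnd3 with the calcium-binding partner Kcnip2, and sustained currents, among them that through Kcna5. Inward rectifiers hold the resting potential (Kcnj2 and Kcnj12), couple the membrane to the ATP level (Kcnj11 and Kcnj8 with sulfonylurea receptors) or answer vagal signals (Kcnj3 and Kcnj5), and 2-pore-domain channels carry a background leak.

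The DNA before the transcription start is shown for Kcnd2 and Kcnip2, whose proteins form a single channel complex and whose RNAs were lower after TAC in both vectors, and for Kcnj2, the main resting-potential gene, which was lower in GFP hearts. Each is the stretch of 250 bases directly before the RefSeq start in GRCm38.p6, written 5′ to 3′ along the strand of the gene, and none of them overlaps an annotated exon of GENCODE M21. Capitals mark matches to 3 motifs that were searched on both strands and do not overlap each other. The GC box was searched as GGGCGG. For the TATA box the letters were TATAAA. For the GATA core they were GATAA.
Kcnd2, chr6:21215096-21215345, plus strand: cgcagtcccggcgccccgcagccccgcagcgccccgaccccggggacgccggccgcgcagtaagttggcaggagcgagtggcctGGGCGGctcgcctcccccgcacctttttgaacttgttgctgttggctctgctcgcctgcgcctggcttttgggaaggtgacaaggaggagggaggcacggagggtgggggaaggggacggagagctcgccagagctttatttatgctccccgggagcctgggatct
Kcnip2, chr19:45816064-45816313, minus strand: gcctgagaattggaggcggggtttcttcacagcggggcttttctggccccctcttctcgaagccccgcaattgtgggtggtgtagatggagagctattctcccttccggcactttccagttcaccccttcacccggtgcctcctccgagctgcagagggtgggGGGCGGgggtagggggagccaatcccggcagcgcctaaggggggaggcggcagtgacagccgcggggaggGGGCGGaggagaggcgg
Kcnj2, chr11:111065914-111066163, plus strand: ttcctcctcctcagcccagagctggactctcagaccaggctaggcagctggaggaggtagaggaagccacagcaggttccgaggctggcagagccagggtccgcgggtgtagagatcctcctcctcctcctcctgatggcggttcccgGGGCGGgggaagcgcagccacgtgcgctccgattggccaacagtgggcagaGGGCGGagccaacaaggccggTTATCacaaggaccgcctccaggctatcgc
All 3 stretches were rich in G and C (68.8%, 66.8% and 65.6%). The GC box stood 1 time in the Kcnd2 stretch and 2 times in each of the others, and the single GATA core, read on the opposite strand, was in that of Kcnj2. Across all 32851 RefSeq stretches of this length, 32.7% held the GC box, 12.4% the TATA box and 22.6% the GATA core. The 46 stretches that matched an analysed member belonged to 32 of the 46 genes (several had more than 1 start), and 15 held the GC box, 0 the TATA box and 5 the GATA core. A match describes the letters only, and its absence says nothing about a factor.

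To ask which subunits these hearts express, levels were compared per kilobase of exon, a scale that takes account of the different lengths of genes. In GFP sham hearts the highest was Kcnk3, an acid-sensitive background channel, at 39 ± 3.75 CPM per kilobase (mean ± SD, n = 4). Kcnip2 followed at 34.9 ± 1.66, then Kcnj11, the pore of the ATP-sensitive channel, at 28.4 ± 1.27, and Kcng2, a silent alpha subunit that modifies other Kv pores, at 20.7 ± 1.39. Kcnj3 and Kcnj5, which together form the channel opened by acetylcholine, were at 13.8 ± 1.43 and 10 ± 0.586 CPM per kilobase. Below them were Kcnh2 at 9.8 ± 2.1, Kcna5 at 8.87 ± 0.926, Kcnj8 at 7.24 ± 0.553, Kcnj2 at 7.14 ± 1.13 and Kcnq1 at 6.69 ± 0.522 CPM per kilobase. The pairs Kcnh2 and Kcna5, Kcnj8 and Kcnj2, and Kcnj2 and Kcnq1 each differed by less than the larger SD of the pair. In all, 20 of the 46 genes had a mean of at least 1 CPM per kilobase.

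Partners in a channel were not at matched RNA levels. Kcnip2 stood far above Kcnd2 (3.14 ± 0.488 CPM per kilobase) and Kcnd3 (1.51 ± 0.127), the pores it binds. The accessory subunit Kcne1 (0.259 ± 0.0745) was far below Kcnq1, its pore partner. Of the silent subunits, Kcng2 was above Kcnv2 (2 ± 0.249). These levels rest on the annotated exons of each gene, so a gene whose heart transcript uses only part of them is understated.

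**Figure D1:**
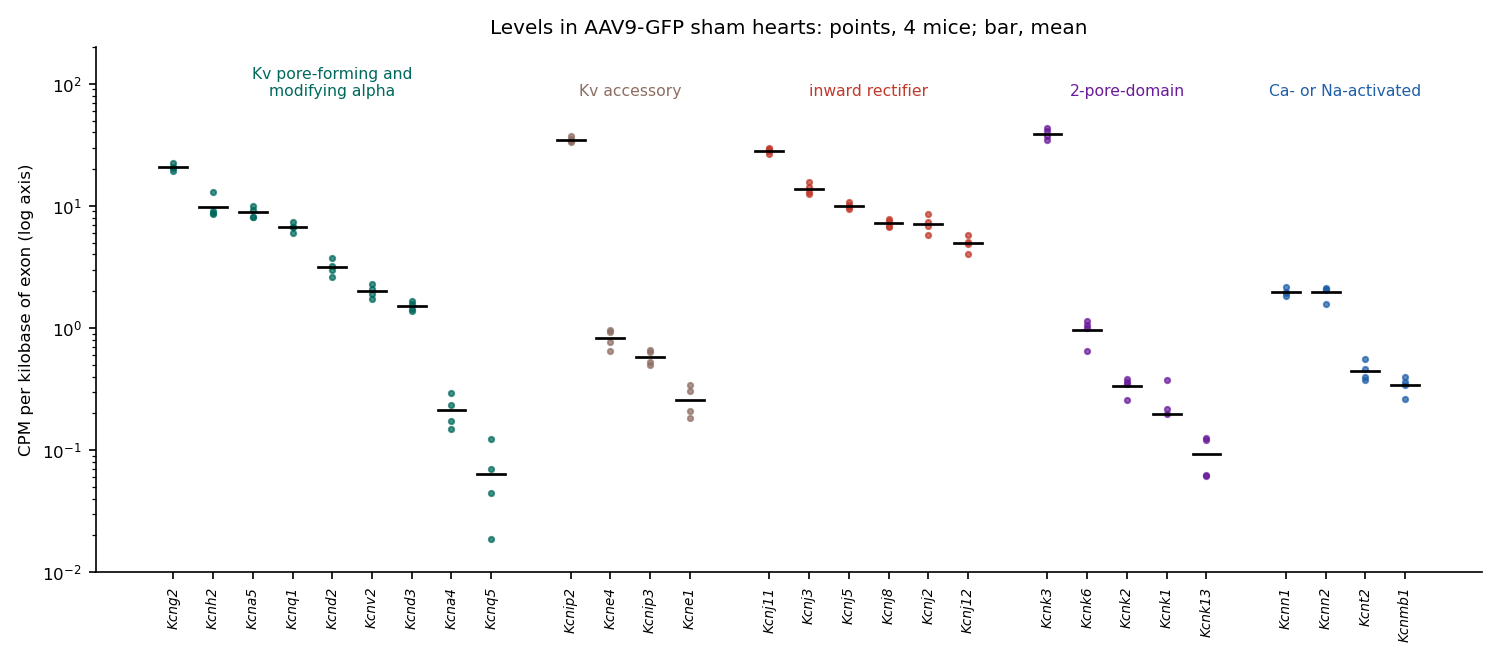
Level of 28 analysed potassium channel genes in GFP sham hearts, in CPM per kilobase of exon on a log axis, grouped by family and ordered within each. Points are the 4 mice (1 mouse with a Kcnk1 count of 0 cannot be drawn) and bars their mean, and Kcnk3, Kcnip2, Kcnj11 and Kcng2 lie above the others drawn.

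After TAC a small group of these genes was lower in both vectors. In GFP hearts, 10 of the 46 passed an adjusted p of 0.05, 8 lower and 2 higher after TAC (21.7%), where 17.3% of all genes tested were called (8.89% lower and 8.42% higher). In Cardinal hearts 8 of 46 passed, all of them lower (17.4%), against 6.42% of all genes (3.38% lower and 3.04% higher). The share of members called was thus near that of all genes in GFP hearts, and the larger gap in Cardinal hearts has no test of its own. The median log2 fold change of the 46 genes was -0.17 in GFP and -0.13 in Cardinal hearts, where the median of all genes tested was 0.0047 and -0.00037. Of the 13 genes called in either vector, 5 were lower in both, namely Kcnd2, Kcnip2, Kcnv2, Kcnj3 and Kcnj11. Mice of the 2 groups did not overlap for 11 members in GFP hearts and for 10 in Cardinal hearts, where 20.2% and 13.6% of all genes did not overlap.

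By family, 4 of the 8 inward rectifiers, 2 of the 19 Kv alpha subunits and 2 of the 7 Kv accessory subunits fell in GFP hearts, and 1 accessory subunit and 1 of the 6 2-pore-domain channels rose. That 2-pore-domain channel, Kcnk13, met the count filter only with the columns of the GFP TAC mice, where it was high. In Cardinal hearts 4 Kv alpha subunits, 1 accessory subunit, 2 inward rectifiers and 1 of the 6 calcium- or sodium-activated genes fell. TMM assumes that most genes do not change. With library totals alone the median of all genes was 0.16 in GFP hearts, 10 members were again called there but 5 of them higher and 5 lower, and 4 members were called in Cardinal hearts, all lower. The share of all genes called on that scale is not given here, so these counts are not a result about the members. Without GFP TAC replicate 3 the count in GFP hearts was 7 (with 11.6% of all genes called), and without GFP TAC replicate 1 it was 15 (17.7%). In Cardinal hearts it was 3 without Cardinal sham replicate 2, Cardinal TAC replicate 4 or Cardinal TAC replicate 5 (2.43%, 4.47% and 2.29% of all genes), and 3 with no filter on low counts.

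**Figure D2:**
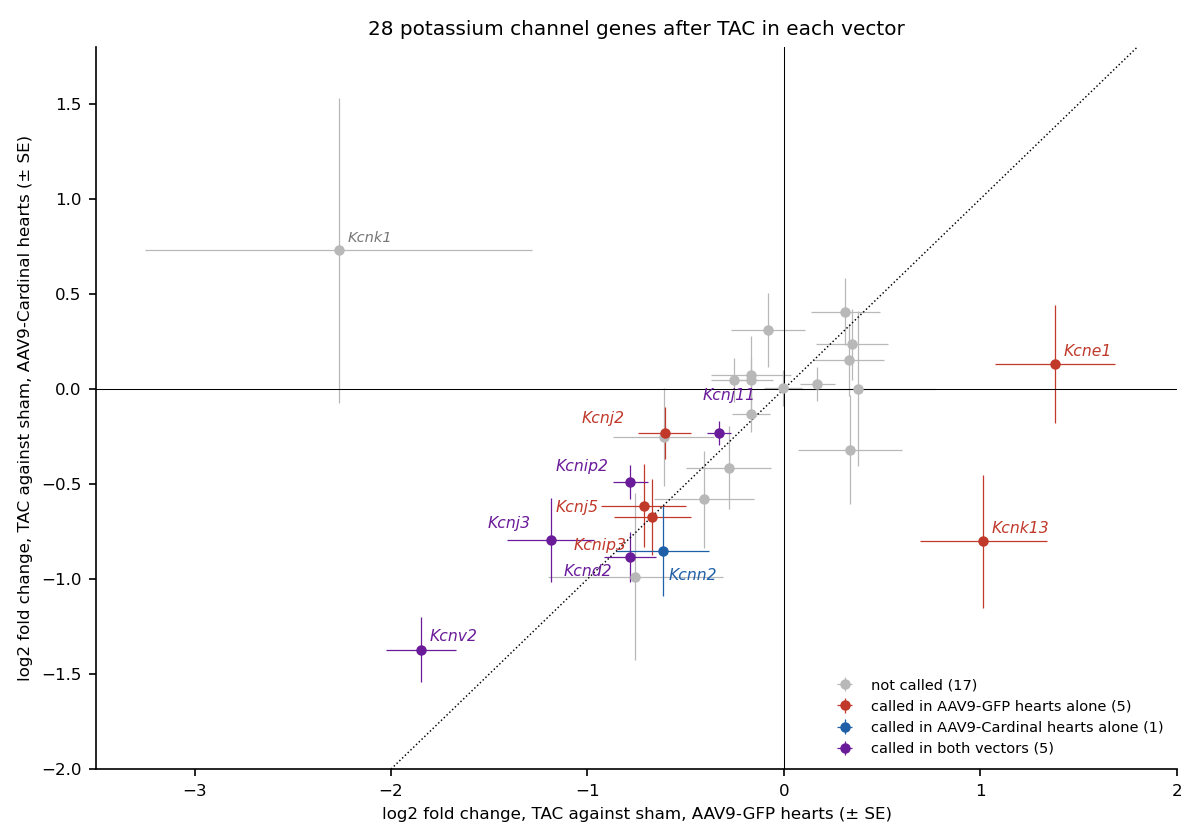
Log2 fold change, TAC against sham, of 28 of the 46 genes in GFP hearts (horizontal axis) and Cardinal hearts (vertical axis), with bars of 1 SE and a dotted line where both are equal. The 5 genes called in both vectors lie in the lower left, Kcne1 and Kcnk13 were called higher in GFP hearts, and none was called higher in Cardinal hearts.

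Of the transient outward current, Kcnd2, the pore of the fast component (ENSMUSG00000060882, chromosome 6, 21215503 to 21729805), was at 16.4, 15.5, 19.4 and 13.3 CPM in the 4 GFP sham mice and at 9.85, 7.26, 10.9 and 9.61 CPM in the 4 GFP TAC mice. In Cardinal mice it was at 18.8, 22, 16.2 and 16.6 CPM after sham surgery and at 10.4, 10.5, 9.64 and 9.35 CPM after TAC. All TAC mice lay below all sham mice in each vector. The falls were -0.78 ± 0.13 on the log2 scale (SE, adjusted p = 0.000996) in GFP hearts and -0.88 ± 0.13 (adjusted p = 0.00233) in Cardinal hearts.

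Kcnip2, the beta subunit that brings Kcnd channels to the membrane (ENSMUSG00000025221, chromosome 19, 45791839 to 45816061), was at 123, 115, 118 and 129 CPM in sham mice with GFP and 129, 121, 128 and 122 CPM in those with Cardinal. After TAC it stood at 61.6, 64.8, 83 and 72.8 CPM in GFP mice and at 76.3, 102, 88.5 and 88.9 CPM in Cardinal mice. Again no TAC mouse reached a sham mouse of its vector (log2 fold change -0.78 ± 0.09, adjusted p = 5.57e-05 in GFP hearts and log2 fold change -0.49 ± 0.09, adjusted p = 0.00661 in Cardinal hearts). Its relative Kcnip3, at 1.75 to 2.35 CPM in GFP sham and 0.869 to 1.62 CPM in GFP TAC mice, fell in GFP hearts (log2 fold change -0.67 ± 0.20, adjusted p = 0.0277), and its value in Cardinal hearts was -0.67 ± 0.20 (adjusted p = 0.058), which passed without Cardinal sham replicate 4 or without GFP TAC replicate 7 (adjusted p down to 0.0397). The Kcnip3 call in GFP hearts was lost without any 1 of GFP sham replicates 3 and 4 and GFP TAC replicates 3 and 7 (adjusted p up to 0.0835), and with library totals alone (adjusted p = 0.0656). It was also lost with the replicate number as a block, with and without a GC offset.

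The other pores of this current were not called. Kcnd3 was at 15.9, 13.6, 15 and 13.2 CPM in GFP sham and 14, 9.1, 8.4 and 6.35 CPM in GFP TAC mice (log2 fold change -0.61 ± 0.26, adjusted p = 0.123), with GFP TAC replicate 1 inside the sham range. Among Cardinal mice, sham replicate 4 had 5.65 CPM against 15.0 to 16.1 CPM in the other 3, and the TAC mice had 9.54 to 12.2 CPM (log2 fold change -0.25 ± 0.26, adjusted p = 0.639). Kcna4, the slow transient outward pore, was at most 2.14 CPM in any mouse, and its fitted changes were 0.38 ± 0.39 in GFP and 0.0028 ± 0.41 in Cardinal hearts (adjusted p = 0.584 and 0.999).

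**Figure D3:**
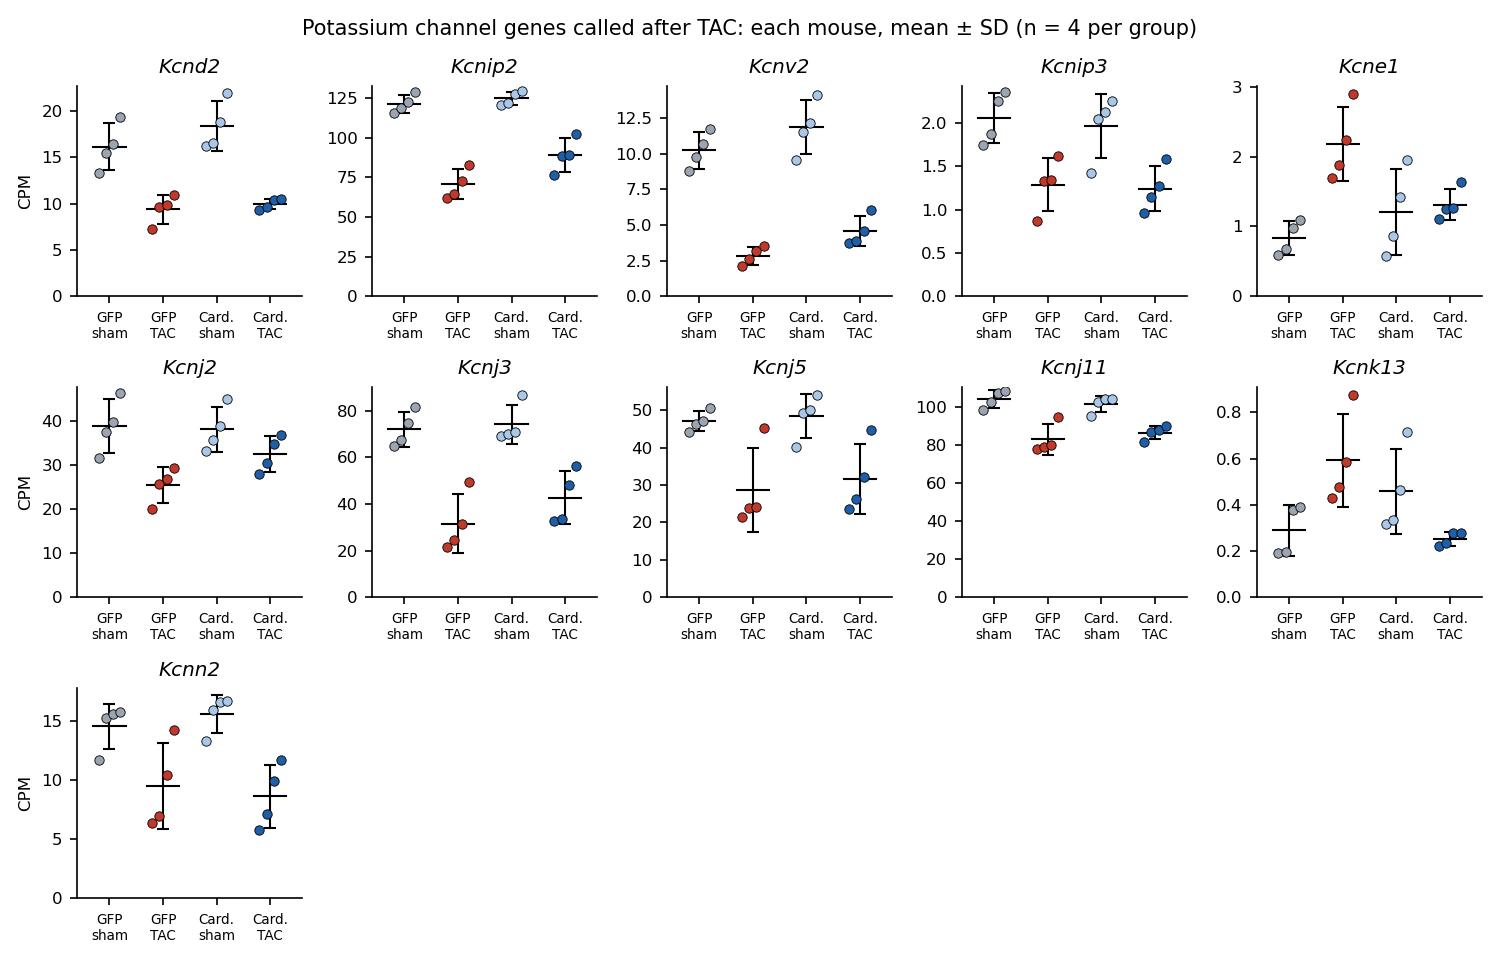
CPM of 11 of the 13 genes called after TAC in either vector, 1 panel a gene, with each axis from 0. Points are mice and black marks the mean ± SD of the 4 mice of a group (Card. stands for Cardinal). TAC mice of both vectors lie below their sham mice for Kcnd2, Kcnip2, Kcnv2, Kcnj3 and Kcnj11, and for Kcnj5 1 TAC mouse of each vector stands near the sham level.

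Sustained Kv currents flow through pores that can be joined by silent partners. Kcnv2, a silent subunit that does not form a channel alone and modifies other Kv pores (ENSMUSG00000047298, chromosome 19, 27322588 to 27337179), had the largest fall of all called members. Its levels were 11.7, 10.7, 9.75 and 8.75 CPM in GFP sham, 3.51, 2.1, 3.15 and 2.61 CPM in GFP TAC, 9.54, 14.1, 11.5 and 12.1 CPM in Cardinal sham and 3.89, 6.06, 4.61 and 3.73 CPM in Cardinal TAC mice. In each vector the highest TAC mouse was well below the lowest sham mouse (log2 fold change -1.85 ± 0.18, adjusted p = 1.62e-05 with GFP, log2 fold change -1.37 ± 0.17, adjusted p = 0.000966 with Cardinal). The group mean after TAC was 0.278 of that after sham surgery in the GFP fit and 0.387 in the Cardinal fit.

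Kcng2, the more abundant silent subunit, was at -0.16 ± 0.11 in GFP and 0.05 ± 0.11 in Cardinal hearts (adjusted p = 0.361 and 0.865). Kcna5, the pore of the ultrarapid sustained current, spread widely within groups, from 15.3 to 31.8 CPM among GFP TAC mice, and its fitted change was -0.17 ± 0.20 with GFP (adjusted p = 0.651) and 0.074 ± 0.20 with Cardinal (adjusted p = 0.893).

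In the delayed rectifier genes the TAC mice did not lie together. Kcnh2, the pore of the rapid delayed rectifier, was at 62.7, 43.5, 41.5 and 42.3 CPM in GFP sham and 59.6, 26.9, 28.8 and 28.2 CPM in GFP TAC mice. In Cardinal mice it was at 60.8, 68.6, 48.4 and 42.3 CPM after sham surgery and 50.8, 35.9, 30.4 and 30.4 CPM after TAC. The first of the TAC mice listed in each vector, replicate 1, lay within the range of the sham mice and the other 3 lay below every sham mouse of their vector, and neither comparison passed (log2 fold change -0.41 ± 0.26, adjusted p = 0.321 with GFP, log2 fold change -0.58 ± 0.26, adjusted p = 0.198 with Cardinal). Kcnq1, the pore of the slow delayed rectifier, had a like arrangement, at 34, 17.4, 21.3 and 17.5 CPM in GFP TAC and 30.4, 19.6, 17.6 and 14.4 CPM in Cardinal TAC mice against 24.7 to 29.9 and 25.1 to 29.5 CPM in their sham groups, so that replicate 1 lay above every sham mouse and the other 3 below (adjusted p = 0.43 and 0.289). Exons of Kcnq1 overlap its antisense noncoding neighbor Kcnq1ot1 over 2.96% of their length.

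Kcne1, the small membrane protein that slows Kcnq1 channels, went the other way in GFP hearts. It was at 1.09, 0.672, 0.588 and 0.978 CPM in GFP sham and 1.89, 2.89, 2.23 and 1.7 CPM in GFP TAC mice, with no overlap (log2 fold change 1.38 ± 0.31, adjusted p = 0.00608). In Cardinal hearts the sham mice spread over 0.859, 1.95, 0.577 and 1.43 CPM and the TAC mice lay inside that range at 1.11, 1.27, 1.63 and 1.24 CPM (log2 fold change 0.13 ± 0.31, adjusted p = 0.872). The call in GFP hearts held with each of the 16 mice left out in turn. Kcne4, another member of this family that inhibits Kcnq1, was at 0.31 ± 0.18 in GFP and 0.41 ± 0.18 in Cardinal hearts (adjusted p = 0.258 and 0.192), and passed with Cardinal without Cardinal sham replicate 3 (adjusted p = 0.0261).

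Of the resting-potential genes, Kcnj2 fell in GFP hearts, from 37.5, 39.8, 31.7 and 46.5 CPM after sham surgery to 25.7, 20, 29.5 and 26.9 CPM after TAC, without overlap (log2 fold change -0.61 ± 0.14, adjusted p = 0.00648). In Cardinal hearts the groups overlapped, at 35.7, 45.1, 33.2 and 38.9 CPM after sham surgery and 28, 34.9, 36.9 and 30.4 CPM after TAC (log2 fold change -0.23 ± 0.14, adjusted p = 0.348). The difference between these responses was 0.37 ± 0.19 and was not called (adjusted p = 0.524). Kcnj12, which assembles with Kcnj2, was at 11.2 to 15.9 CPM in GFP sham and 9.88 to 14 CPM in GFP TAC mice (log2 fold change -0.26 ± 0.12, adjusted p = 0.16), and at 0.047 ± 0.12 in Cardinal hearts (adjusted p = 0.88).

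The ATP-sensitive channel couples the energy state of the cell to its excitability. Its ventricular pore Kcnj11 (ENSMUSG00000096146, chromosome 7, 46093953 to 46100764) was at 103, 108, 108 and 98.5 CPM in GFP sham, 95.1, 80.4, 78.9 and 78 CPM in GFP TAC, 95.4, 103, 104 and 105 CPM in Cardinal sham and 90.3, 87.9, 81.7 and 86.9 CPM in Cardinal TAC mice. The falls were the smallest of those called, -0.33 ± 0.062 with GFP (adjusted p = 0.002) and -0.23 ± 0.062 with Cardinal (adjusted p = 0.0396), though TAC and sham mice did not overlap in either. The Cardinal call was lost without any 1 of Cardinal sham replicates 2, 3 and 4 and Cardinal TAC replicates 4, 5 and 6 (adjusted p up to 0.124), with library totals alone (adjusted p = 0.0847), with no filter on low counts (0.0719) and with a GC offset (0.0505), and the GFP call with library totals alone (adjusted p = 0.0578). Abcc9, the sulfonylurea receptor of the ventricular and vascular channel, fell in both vectors, with 341 to 383 CPM in GFP sham and 203 to 254 CPM in GFP TAC mice (log2 fold change -0.67 ± 0.063, adjusted p = 1.3e-05) and with 357 to 382 CPM in Cardinal sham and 247 to 285 CPM in Cardinal TAC mice (log2 fold change -0.47 ± 0.062, adjusted p = 0.00122). Abcc8, the other receptor, fell by 0.28 ± 0.089 on the log2 scale with GFP (adjusted p = 0.04) and by 0.42 ± 0.089 with Cardinal (adjusted p = 0.0137). In GFP TAC replicate 1 Abcc8 was at 30.1 CPM, inside the GFP sham range of 28.4 to 32.8 CPM. Kcnj8, the vascular pore, was at 0.17 ± 0.087 in GFP and 0.026 ± 0.088 in Cardinal hearts (adjusted p = 0.211 and 0.915), and was called higher in GFP hearts with library totals alone (adjusted p = 0.028).

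Kcnj3 and Kcnj5 form the acetylcholine-gated channel, best known from the atria and the nodes. Kcnj3 (ENSMUSG00000026824, chromosome 2, 55435970 to 55598145) was at 81.5, 67.6, 64.9 and 74.6 CPM in GFP sham and 49.4, 24.4, 31.4 and 21.5 CPM in GFP TAC mice. With Cardinal it was at 70.8, 86.9, 69.1 and 69.9 CPM after sham surgery and 56.4, 48.1, 32.9 and 33.6 CPM after TAC. No TAC mouse overlapped a sham mouse (log2 fold change -1.19 ± 0.22, adjusted p = 0.00201 with GFP, log2 fold change -0.79 ± 0.22, adjusted p = 0.0458 with Cardinal), but the Cardinal call held without Cardinal TAC replicate 1 or GFP TAC replicate 1, 3 or 7 and was lost without any other mouse (adjusted p up to 0.14), with no filter on low counts (adjusted p = 0.0785) and with library totals alone (adjusted p = 0.0606). Opposite-strand exons of the noncoding gene Gm26794 cover 31.1% of the Kcnj3 exon bases. Kcnj5 was at 50.7, 47.2, 46.3 and 44.1 CPM in GFP sham and 45.3, 24.1, 23.8 and 21.5 CPM in GFP TAC mice, 1 of which lay inside the sham range (log2 fold change -0.71 ± 0.22, adjusted p = 0.0348). In Cardinal mice it was at 50.1, 54.1, 40.2 and 49.4 CPM after sham surgery and 44.6, 32.1, 26.2 and 23.7 CPM after TAC (log2 fold change -0.61 ± 0.22, adjusted p = 0.111), and passed without replicate 1 of either TAC group (adjusted p down to 0.0266). The GFP call for Kcnj5 was lost without any 1 of GFP sham replicates 1, 2, 3 and 4 and GFP TAC replicates 3, 4 and 7 (adjusted p up to 0.102), with no filter on low counts (adjusted p = 0.0541), with library totals alone (0.0792) and with the 8 GFP mice alone (0.0566). Atrial markers summed to 0.71 to 1.18 CPM in GFP sham and 0.956 to 2.53 CPM in GFP TAC mice, of which Myl4 was the 1 gene of 4 with enough counts to be tested (adjusted p = 0.567 in GFP hearts), and Myl7 and Sln were at 0 in 15 of the 16 mice.

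Among the 2-pore-domain channels, the abundant Kcnk3 was not called, at 173, 148, 139 and 162 CPM in GFP sham and 169, 133, 116 and 135 CPM in GFP TAC mice (log2 fold change -0.17 ± 0.096, adjusted p = 0.27) and at -0.13 ± 0.096 with Cardinal (adjusted p = 0.475). Kcnk2, a stretch-sensitive channel, was at 1.27 to 1.89 CPM in GFP sham and 1.78 to 2.36 CPM in GFP TAC mice (adjusted p = 0.441), and Kcnk6 at -0.079 ± 0.19 (adjusted p = 0.839). Kcnk13, a channel at the edge of detection here, was at 0.379, 0.192, 0.392 and 0.196 CPM in GFP sham and 0.428, 0.587, 0.875 and 0.478 CPM in GFP TAC mice, all higher (log2 fold change 1.02 ± 0.32, adjusted p = 0.0423). In Cardinal mice the order was the opposite, 0.316, 0.465, 0.336 and 0.714 CPM after sham surgery and 0.221, 0.235, 0.279 and 0.276 CPM after TAC, again without overlap (log2 fold change -0.80 ± 0.35, adjusted p = 0.203). The difference between the responses was -1.82 ± 0.48 and did not pass (adjusted p = 0.301). The GFP call was lost without any 1 of Cardinal sham replicate 2, Cardinal TAC replicates 4, 5 and 6, GFP sham replicates 2 and 4 and GFP TAC replicates 3 and 4 (adjusted p up to 0.142), and with DESeq2 (adjusted p = 0.132), no filter on low counts (0.0697), a GC offset (0.0618) or the 8 GFP mice alone (0.0781). It was also lost with the replicate number as a block, with and without the GC offset. Kcnk13 reached 10 counts in 6 columns, those of all GFP TAC mice and of Cardinal sham replicates 2 and 4. Its place among the genes tested thus rests on the group where it was high, and its call is not independent of the filter.

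The small-conductance calcium-activated channels Kcnn1 and Kcnn2 stood at levels in GFP sham hearts that did not differ beyond their spread (1.97 ± 0.145 and 1.95 ± 0.257 CPM per kilobase). Kcnn2 was at 16.6, 16.7, 13.3 and 16 CPM in Cardinal sham and 11.8, 9.92, 5.82 and 7.14 CPM in Cardinal TAC mice, without overlap (log2 fold change -0.85 ± 0.24, adjusted p = 0.0463). With GFP it was at 15.3, 15.6, 15.8 and 11.7 CPM after sham surgery and 14.3, 7, 10.5 and 6.35 CPM after TAC (log2 fold change -0.62 ± 0.24, adjusted p = 0.0873). Kcnn1 was at 8.33 to 9.94 CPM in GFP sham and 8.35 to 10.3 CPM in GFP TAC mice, with fitted changes of -0.0053 ± 0.096 and 0.005 ± 0.097 in the 2 vectors. The Kcnn2 call in Cardinal hearts held without Cardinal TAC replicate 1, GFP sham replicate 4 or GFP TAC replicate 1, 3 or 7 and was lost without any other mouse (adjusted p up to 0.139), with no filter on low counts (adjusted p = 0.079) and with library totals alone (adjusted p = 0.0595). Kcnt2, a sodium-activated pore, was at 0.35 ± 0.18 with GFP and 0.24 ± 0.19 with Cardinal (adjusted p = 0.222 and 0.519).

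The TAC mouse numbered 1 of each vector stood apart in some of these genes and not in others. For GFP TAC replicate 1, Kcnh2 was 59.6 CPM against 26.9 to 28.8 CPM in the other 3 mice, Kcnq1 34 against 17.4 to 21.3, and Kcnj5 45.3 against 21.5 to 24.1. In the same mouse Kcnip2 was 61.6 CPM, the lowest of its group, and Kcnd2 and Kcnv2 were well below every sham mouse. Cardinal TAC replicate 1 had the highest Kcnh2, Kcnq1, Kcnj5, Kcnj3 and Kcnn2 of its group and the lowest Kcnip2 and Kcnj2. Among sham mice Kcnh2 was also highest in GFP sham replicate 1 (62.7 CPM), while in Cardinal sham mice replicate 2 (68.6 CPM) was above replicate 1 (60.8 CPM). Without GFP TAC replicate 1, 15 members passed in GFP hearts, the 10 above and Kcnh2, Kcnn2, Kcnd3, Kcnj12 and Kcnk3, all lower, or 32.6% of members where 17.7% of all genes were called in that fit (Kcnh2 at -0.76, adjusted p = 0.0185). Without Cardinal TAC replicate 1, 10 passed in Cardinal hearts (21.7%, against 8.54% of all genes), 7 of them among the 8 above, with Kcnq1 (adjusted p = 0.0462) and Kcnj5 among those added. Both mice were singled out by their values of these same genes, so these shares are not a result about the members. The summed level of the 8 cardiomyocyte markers in GFP TAC replicate 1 was the highest of its group (37255 CPM) and that of Cardinal TAC replicate 1 the lowest of its group (37538 CPM). The summed level of 5 fibroblast markers was the lowest of its group in the first mouse (547 CPM) and the highest in the second (561 CPM). The part of cell composition in these values was not tested.

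**Figure D4:**
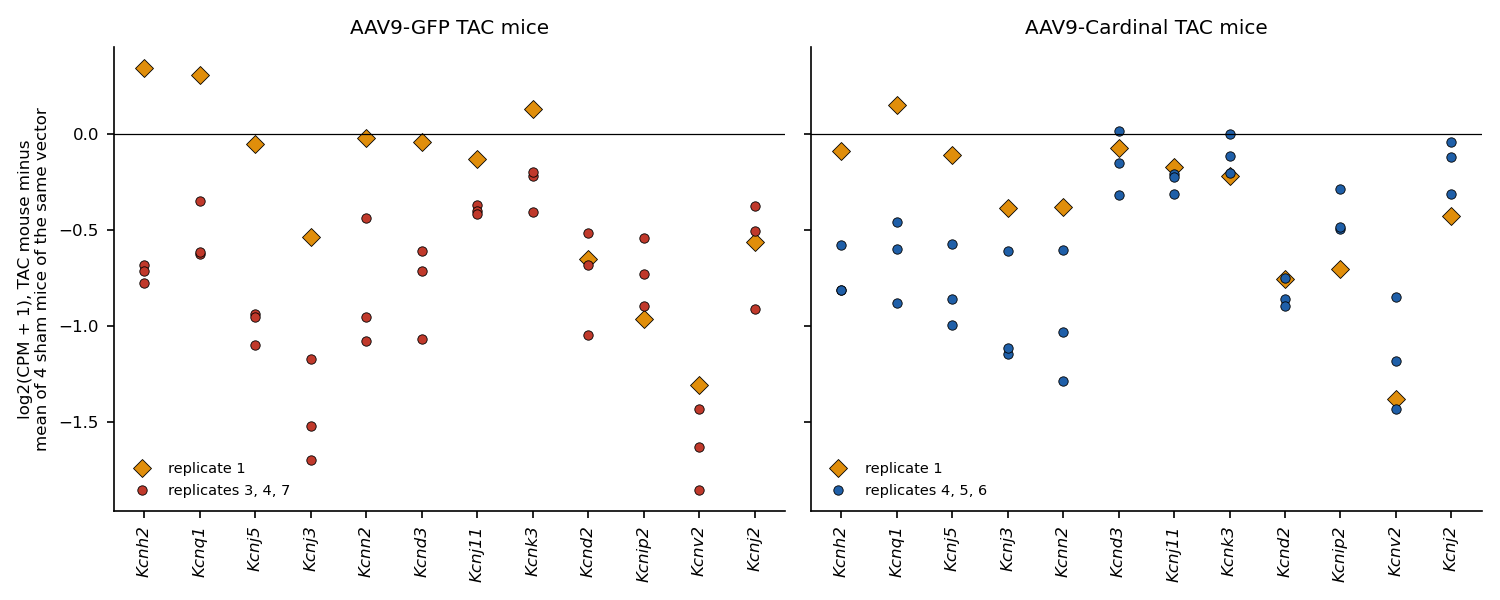
Each TAC mouse against the mean of the 4 sham mice of its vector, as the difference in log2(CPM + 1), for 12 potassium channel genes. Replicate 1 (diamonds) lies near or above 0 for Kcnh2, Kcnq1 and Kcnj5 in both vectors, while for Kcnd2, Kcnip2 and Kcnv2 all 8 TAC mice lie below 0.

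Cardinal was compared with GFP to ask whether it changed these levels. After TAC, 0 of 46 genes passed, where 0.1% of all genes were called. Kcnip2 was 0.34 ± 0.09 higher on the log2 scale in Cardinal TAC than in GFP TAC mice (adjusted p = 0.11), with 3 of 4 Cardinal mice above all GFP mice, and Kcnv2 was 0.68 ± 0.19 higher (adjusted p = 0.111), with 4 of 4 above. By DESeq2 both were called (adjusted p = 0.0184 and 0.0208), and Kcnip2 also passed without Cardinal TAC replicate 1 or without GFP TAC replicate 4 (adjusted p down to 0.0244). The share of all genes called in those fits is not given here, so these calls are not a result about the members. Kcnj3 was at 0.43 ± 0.22 (adjusted p = 0.382), Kcnj2 at 0.35 ± 0.14 (adjusted p = 0.242) and Kcne1 at -0.73 ± 0.29 (adjusted p = 0.247).

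After sham surgery 0 of 46 genes passed, against 0.0118% of all genes, and by DESeq2 the count was also 0. The median difference of the 46 genes was 0.029. For the difference between the 2 TAC responses, again 0 of 46 passed, against 0.0118% of all genes, and DESeq2 called 0. The fall of Kcnv2 was 0.48 ± 0.25 smaller with Cardinal (adjusted p = 0.532), that of Kcnip2 0.29 ± 0.13 smaller (adjusted p = 0.454), that of Kcnd2 differed by -0.10 ± 0.19 (adjusted p = 0.898), and the rise of Kcne1 differed by -1.25 ± 0.44 (adjusted p = 0.364). A gene called in 1 vector alone, as Kcne1, Kcnj2 and Kcnn2 were, was therefore not shown to respond differently in the other. These comparisons share their TAC or sham mice with the ones above.

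Genes of channel complexes and their control that carry other symbols were taken from a list of 24, of which 19 could be tested. In GFP hearts 6 fell and 3 rose, where 8.89% of all genes tested were called lower and 8.42% higher. Those that fell were Abcc8, Abcc9, the scaffold Dlg1 (-0.21 ± 0.057), the ubiquitin ligases Nedd4l (-0.49 ± 0.11) and Rnf207 (-0.55 ± 0.16), and the membrane adaptor Ank2 (-0.34 ± 0.072). Rnf207 was at 69.7 CPM in GFP TAC replicate 1, inside the GFP sham range of 64.2 to 72.3 CPM, as Abcc8 was in that mouse. The partner calls were not checked with a mouse left out. Those that rose were the kinase anchor Akap5 (1.10 ± 0.33, with GFP TAC replicate 4 inside the sham range), the caveolar protein Cav3 (0.35 ± 0.065) and Irx5, a transcription factor known to restrain Kcnd2 in the ventricular wall, which was at 3.41, 2.45, 4.12 and 4.06 CPM in GFP sham and 6.51, 6.71, 4.59 and 6 CPM in GFP TAC mice (log2 fold change 0.76 ± 0.25, adjusted p = 0.0466). In Cardinal hearts 5 fell (Abcc8, Abcc9, Nedd4l, Rnf207 and Ank2) and 1 rose, where 3.38% of all genes were called lower and 3.04% higher. Irx5 was at 0.69 ± 0.25 there (adjusted p = 0.121). The list was chosen with earlier results of these data known, so its counts are not a result about channel partners.

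Cell type markers moved beside these genes. Of all genes tested, 8.89% were called lower and 8.42% higher in GFP hearts, and 3.38% and 3.04% in Cardinal hearts. In GFP hearts 6 of the 8 cardiomyocyte markers fell with TAC and their summed level was 30914 to 37255 CPM in GFP TAC mice, below all GFP sham mice, while 2 of 5 fibroblast markers rose and that sum was 365 to 416 CPM after sham surgery and 547 to 745 CPM after TAC. Postn was at 22.3 to 23.9 CPM in GFP sham and 134 to 222 CPM in GFP TAC mice, and Col1a1 at 37.6 to 41.8 and 91.7 to 137 CPM. For Dcn, Pdgfra and Tcf21 the mice of the 2 groups overlapped, so the sum does not stand for all 5 markers. In Cardinal hearts 1 cardiomyocyte marker fell and 1 rose, with sums of 40622 to 44947 CPM after sham surgery and 37538 to 41710 CPM after TAC, and the fibroblast sum was 359 to 387 CPM after sham surgery and 364 to 561 CPM after TAC, with 1 of 5 genes higher. Of the other lists, 1 of 4 endothelial and 2 of 5 smooth muscle and pericyte markers rose, 1 of the 2 Schwann and neural markers that could be tested fell, and 0 of 4 macrophage and 0 of 3 erythroid markers passed in GFP hearts, and 0 of these passed in Cardinal hearts. The neural enzyme Th was at 0 in all 16 mice. The share of these marker shifts in the potassium channel values was not tested.

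The other 48 members did not reach the filter. Of these, 24 had no count in any of the 16 mice, among them Kcnma1, the large-conductance pore of smooth muscle, and the inward rectifiers Kcnj1 and Kcnj16. The remaining 24 had between 1 and 102 counts over all mice. Nearest below the filter were Kcnc4, Kcnh1 and Kcnip1, which reached 10 counts in 3 columns, and nearest above it were Kcnk1 and Kcnq5, which did so in 5. Kcnmb1, the smooth muscle beta subunit of the channel whose pore is Kcnma1, was nonetheless counted at 1.1 to 1.67 CPM in GFP sham mice, while the count of Kcnma1 was 0 in each library, below the floor of 0.137 to 0.182 CPM. Kcnk1 and Kcnq5 lay near the floor (0 to 0.833 and 0.144 to 0.946 CPM in GFP sham mice), so that their large fitted values, -2.27 ± 0.99 and -0.76 ± 0.45 in GFP hearts, were not distinguishable from 0 at this depth (adjusted p = 0.135 and 0.286), although Kcnk1 passed without GFP sham replicate 1, the mouse at 0 (adjusted p = 0.0479).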

How the data were processed

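Poly(A)-selected RNA of 16 hearts was sequenced by the study as single-end reads of 50 bases. The authors deposited raw read counts per gene, a column for each mouse, with no normalization. The submitters' processing notes name FastQC, HISAT2 2.1.0, edgeR 3.26.1 and GRCm38, while the counting program, the use of strand and the treatment of reads with several matches were not given in the sources used here. Gene names, exon lengths and overlaps came from GENCODE M21 (55480 of 55573 genes matched). Promoters came from RefSeq (GRCm38.p6).

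The 16971 genes with at least 10 counts in 4 or more columns entered 1 quasi-likelihood fit of all 16 mice with TMM factors and contrasts of group means (edgeR 4.0.16 under R 4.3.3). Errors of log2 fold changes are SE from that fit, and genes were called at a Benjamini-Hochberg adjusted p under 0.05 over all genes tested. CPM used the TMM-scaled library sizes. Plots were made in Python 3.11.15 with matplotlib 3.10.9. The method was tested on simulated counts drawn independently for each gene and mouse. These hold no deviations shared by many genes of a mouse, so that test says nothing about such deviations. Replicates are separate mice by their labels, any pair of the same group differed by more than sampling noise (chi-square per degree of freedom 5.49 to 16.4), and the p-values measure the spread between these mice.

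The members and lists were chosen with earlier results of these data known. Named were all members called in any of the 5 comparisons, the 3 with the highest level per kilobase in each family, a list of 19 ventricular repolarization genes, and the members nearest the filter, of which some are counted but not reported here by name or value. Figures draw 28 analysed members. By CPM in place of level per kilobase, 14 of the 15 members in the top 3 of a family were the same. Kcnma1, Kcnmb1, Kcnj1 and Kcnj16 were named after their values were seen. Alternatives were RLE factors, DESeq2 1.42.0, filterByExpr, no minimum beyond 1 count, a fit of just the 8 mice in question, a robust estimate of spread, mitochondrial genes left out, the replicate number as a block, a GC offset, at least a 1.5-fold change and each mouse left out. Library totals alone, and leaving out members that share over 10% of their sequence or exon bases with other genes, were added after seeing the data.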

Additional observations from a re-analysis of the deposited data

Results flagged for a closer look

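Among 120 groups of 4 mice (30 genes in 4 groups), 8 had a mouse whose gap to the nearest of the others exceeded Dixon's limit for 4 values as a share of the range of the group, and chance alone gives about 1 such group in 20. GFP TAC replicate 1 accounted for 3 of them. It had 59.6 CPM of Kcnh2 where the other 3 mice had 26.9 to 28.8, 45.3 CPM of Kcnj5 (others 21.5 to 24.1) and 95.1 CPM of Kcnj11 (others 78.0 to 80.4). GFP sham replicate 1 had 62.7 CPM of Kcnh2 (others 41.5 to 43.5). GFP sham replicate 4 had 11.7 CPM of Kcnn2 (others 15.3 to 15.8). Cardinal sham replicate 2 had 86.9 CPM of Kcnj3 (others 69.1 to 70.8) and 0 CPM of Kcnk1 (others 0.384 to 0.407). Cardinal sham replicate 4, the library with the fewest counts (16441997), had 5.65 CPM of Kcnd3 (others 15.0 to 16.1), and without that mouse Kcnd3 passed in GFP hearts at an unchanged fold (-0.61, adjusted p = 0.025).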

How the results depend on the processing

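The count of members called in GFP hearts was 8 to 10 under every setting other than leaving out a mouse, and 7 (without GFP TAC replicate 3) to 15 (without GFP TAC replicate 1) with each mouse left out in turn. In Cardinal hearts, where the count was 8, it was 5 with at least a 1.5-fold change, 4 with library totals without TMM, 3 with no filter on low counts, 0 with the replicate block, 0 with the replicate block and GC offset together, and 3 (without Cardinal sham replicate 2, Cardinal TAC replicate 4 or Cardinal TAC replicate 5) to 10 (without Cardinal TAC replicate 1 or GFP TAC replicate 1) with each mouse left out. Between the vectors after TAC, DESeq2 called 2 members and leaving out a mouse gave 0 to 1. The counts between sham groups and for the difference in response were 0 in all settings run. With a mouse left out, the share of all genes called in Cardinal hearts ran from 2.29% (without Cardinal TAC replicate 5) to 8.54% (without Cardinal TAC replicate 1). For the other settings that share is not given here, so a change in count under them is not a result about the members. With library totals alone 5 members were higher and 5 lower in GFP hearts, in place of 2 and 8. Replicate numbers were not treated as pairs, since nothing in the labels says that they pair mice. The median correlation of deviations was 0.052 between same-numbered mice and -0.012 between other mice of different groups. Over 16 pairs of same-numbered mice the correlation of deviations was -0.040 to 0.21, 3 pairs exceeded 0.1, all of them between mice numbered 1, whose 6 pairs were all positive (0.068 to 0.21), and 5 of 13 mice correlated best with a mouse of their own number. Under the replicate block 8 members were called in GFP hearts, where the Kcnip3 and Kcnk13 calls were lost. In Cardinal hearts 0 were called, and Kcnd2, Kcnip2 and Kcnv2 also missed the threshold there (adjusted p = 0.146, 0.095 and 0.0904). No other mouse has the number of Cardinal TAC replicates 5 and 6 or GFP TAC replicate 7. The block therefore takes these mice out of the comparisons, and its effect cannot be told apart from their loss. Whether mice numbered 1 share a source cannot be told from the labels. Of 4011 values of 30 genes, 16 gained and 65 lost a call with a mouse left out, 6 gained and 41 lost one under the other settings, none of those called reversed, and 178 uncalled values changed sign. A minimum of 50 counts kept 24 members. The cause of these differences was not tested. Depth limits members under about 0.182 CPM.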
